A study of Rattus norvegicus with 39 samples.

Results

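This comparison set the sperm small RNA of rats given 50 mg/kg/d of ethylene glycol monomethyl ether (EGME, also called 2-methoxyethanol) against that of rats given the vehicle. It covered 20 of the 39 libraries of the series. The 10 libraries of the treated group (EGME50) and the 10 of the control group (EGME0) were chosen by the group name in the sample titles, not by any measured value. All males were wild-type adult Fischer rats of 11 to 12 weeks, and each library held the sperm RNA of 1 male, so the 10 libraries of a group were 10 animals. EGME50 males were gavaged with EGME in water at 50 mg/kg/d for 5 days, EGME0 males with water alone (0 mg/kg/d), and in both groups sperm were taken from the cauda epididymis after 5 weeks without exposure. The other 19 libraries, from males given 60 mg/kg/d (EGME60, 9 libraries) or 75 mg/kg/d (EGME75, 10 libraries), entered the fits to estimate the spread between animals, and their values against the same EGME0 males are set beside those of EGME50 where a feature is named. Because the 3 doses share their controls, the dose columns are not independent of each other.

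EGME is an industrial solvent that is oxidised in the body to methoxyacetic acid, which is toxic to the testis and kills spermatocytes in particular. Sperm released into the cauda epididymis some weeks after such an exposure derive from germ cells that were at an earlier stage of spermatogenesis when the exposure took place. Mature sperm are largely silent in transcription and carry small RNAs left over from spermatogenesis, such as the miR-34 and miR-449 family, or gained from the epididymal epithelium during transit. In mature sperm these are mostly fragments of tRNAs and rRNAs, with smaller amounts of microRNAs (miRNAs) and PIWI-interacting RNAs (piRNAs). A mature miRNA pairs with its targets mainly through its seed, bases 2 to 8 from the 5′ end.

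Some of the miRNAs named below are shown first, 5′ to 3′, with the seed in capitals (sequences from RefSeq, assembly GRCr8, which held 96 of the 105 miRNAs tested). The called miR-200a-3p and miR-200b-3p had no sequence there and are not shown. miR-221-3p was 1 of 3 miRNAs past the threshold, and miR-222-3p is its partner with the same seed, made from a hairpin within 10000 bases.
miR-221-3p: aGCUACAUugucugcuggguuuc
miR-222-3p: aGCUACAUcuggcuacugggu
miR-23a-3p, miR-27a-3p and miR-24-3p differ in their seeds and come from neighbouring hairpins, and all 3 had positive log2 fold changes of differing size without passing the threshold. miR-24-3p is also made beside miR-23b-3p and miR-27b-3p.
miR-23a-3p: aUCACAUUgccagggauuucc
miR-27a-3p: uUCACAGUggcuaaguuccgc
miR-24-3p: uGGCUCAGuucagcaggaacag
let-7a-5p and let-7c-5p share their seed and differ by the single substitution A19G, with positions counted from 1 at the 5′ end of let-7a-5p.
let-7a-5p: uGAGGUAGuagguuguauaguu
let-7c-5p: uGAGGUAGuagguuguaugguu
miR-34b-5p, miR-34c-5p and miR-449a-5p, of the germ cell list, share their seed, which miR-34a-5p also carries.
miR-34b-5p: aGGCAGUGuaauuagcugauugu
miR-34c-5p: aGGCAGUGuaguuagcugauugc
miR-449a-5p: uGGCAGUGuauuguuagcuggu

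The data were counts of sense-strand reads in 4 tables, of mature miRNAs, of tRNA genes, of noncoding transcripts from Ensembl (here the ncRNA table) and of sequences from the noncoding RNA database RNAcentral. Summed over the tables, EGME0 libraries held 714467 to 14442713 counts and EGME50 libraries 3326816 to 18244618, and the log10 totals differed by 0.0801 (EGME50 minus EGME0, permutation test, adjusted p = 0.821). The miRNA table was small, with 1098 to 38208 counts per EGME0 library and 1681 to 33951 per EGME50 library, so miRNA levels rested on few counts. A pair of libraries stood apart. EGME0 replicate 33 was the shallowest control, and EGME50 replicate 36 had the smallest miRNA total of its group and an unusual RNAcentral profile given below. Libraries were run on 13 chips of 3 libraries each, and 6 chips held both groups (6 EGME0 and 7 EGME50 libraries). In bulk sperm RNA, fewer cells of a type and less RNA per cell cannot be told apart. Levels are given as counts per 1000000 of the table (CPM, scaled by the trimmed mean of M-values), differences as log2 fold changes with their standard errors (SE), and a feature was called when its adjusted p from edgeR's quasi-likelihood test, Benjamini-Hochberg over the table, was under 0.05.

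The 4 tables took similar shares of the counts in both groups. The tRNA table held 65.1% ± 9.99 (SD) of the counts at EGME0 and 66.4% ± 6.25 at EGME50. The RNAcentral table held 22.8% ± 7.40 and 23.9% ± 4.94, the noncoding transcripts 11.9% ± 4.84 and 9.58% ± 2.83, and the miRNAs 0.178% ± 0.0731 and 0.169% ± 0.0939. None of these differences exceeded the spread between males (permutation tests, adjusted p = 0.821 for each). The lowest of the 10 EGME50 miRNA shares was 0.0505%, against 0.108% at EGME0, and the highest were 0.349% and 0.312%, so the ranges overlapped over most of their length.

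Among mature miRNAs, 3 of 105 tested were called at EGME50 (2.86%), and all 3 were higher: miR-221-3p, miR-200a-3p and miR-200b-3p. Another 14 were higher and 2 lower at an unadjusted p under 0.05 (in all 17 higher, 16.2%, and 2 lower, 1.9%). Sparse miRNAs could pass the filter, run over all 39 libraries, through the libraries of the higher doses. This balance of higher to lower is therefore a description and not a test. miR-221-3p, which represses the cell cycle inhibitor p27 and the KIT receptor in many cell types, had 0, 532 and 1034 CPM in the lowest, median and highest EGME0 library and 314, 2135 and 3809.5 CPM at EGME50. It lay above every control in 8 of 10 EGME50 libraries, and EGME50 replicates 3 and 27 fell among the controls. The log2 fold change was 1.87 (SE 0.49, edgeR adjusted p = 0.0318). The counts behind it were 0 to 17 per EGME0 library and 3 to 87 per EGME50 library. miR-222-3p was too sparse to be tested, with 14 counts over 4 EGME0 libraries and 49 counts over 6 EGME50 libraries.

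miR-200a-3p and miR-200b-3p belong to a family that keeps epithelial cells in the epithelial state by repressing ZEB1 and ZEB2, and are made from a transcript that also holds miR-429. miR-200a-3p was not detected in 6 of 10 EGME0 libraries and reached 580 CPM in the highest, while at EGME50 it was absent from replicates 3, 11 and 36, had a median of 963 CPM and reached 3949 CPM in replicate 35. The 7 EGME50 libraries in which it was detected all lay above every control. Its log2 fold change was 2.37 (SE 0.66, edgeR adjusted p = 0.0318), and without EGME50 replicate 35 it was 1.86 (adjusted p = 0.168). miR-200b-3p was detected in all 20 libraries, at 813 to 3738 CPM (median 1896) at EGME0, where the highest value was that of replicate 33 and rested on 4 counts, and 1257 to 8043 CPM (median 4604) at EGME50. It was above the control median in 9 of 10 EGME50 libraries and above every control in 6, with a log2 fold change of 1.32 (SE 0.38, edgeR adjusted p = 0.0336). miR-429 of the same transcript had a log2 fold change of 0.92 (SE 0.46, adjusted p = 0.274), its median going from 602 to 1112 CPM. miR-200c-3p, a family member from another transcript, stood at 0.21 (SE 0.31, adjusted p = 0.750), at medians of 7464 and 8404 CPM, and its partner miR-141-3p was too sparse to test (2 counts at EGME0, 16 at EGME50).

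**Figure D1:**
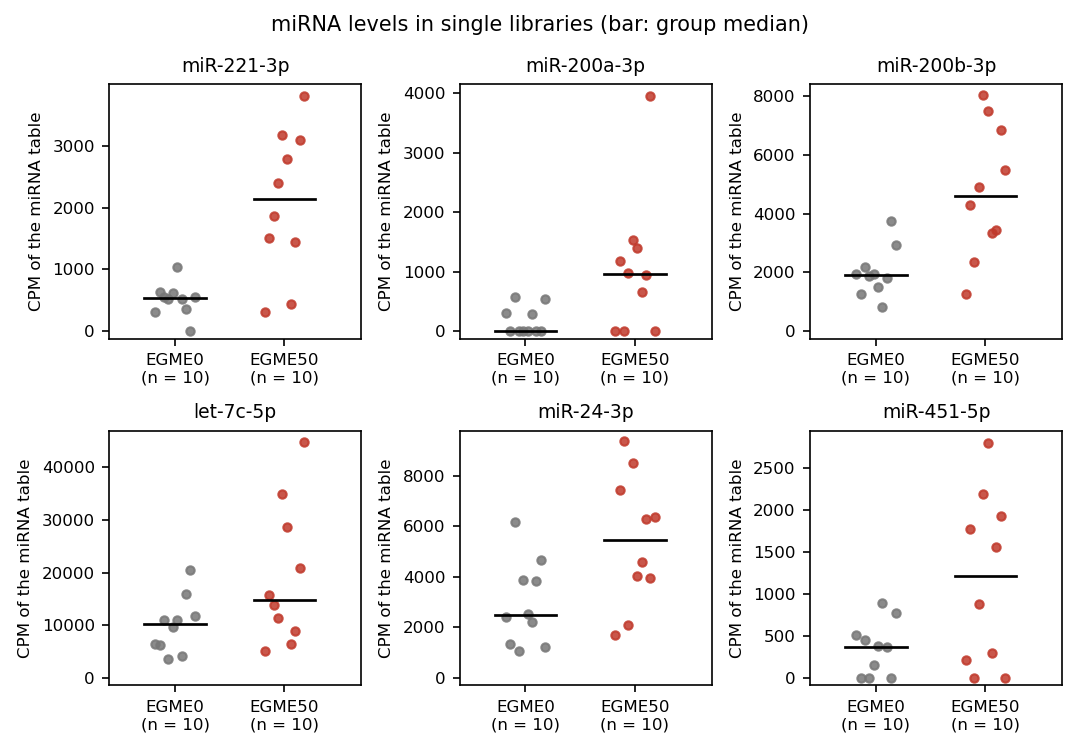
Levels of 6 miRNAs in each of the 10 EGME0 (grey) and 10 EGME50 (red) libraries, in CPM of the miRNA table on linear axes, with a bar at the group median. miR-221-3p lay above every control in 8 EGME50 libraries, miR-200a-3p in 7 and miR-200b-3p in 6, while let-7c-5p, miR-24-3p and miR-451-5p overlapped more and did not pass the threshold.

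The 3 calls were near the threshold. In the fit of the EGME0 and EGME50 libraries alone, miR-221-3p and miR-200a-3p were not among the miRNAs tested. miR-200b-3p was tested there and stayed called. None of the 105 miRNAs was called by edgeR with RLE factors (18 at an unadjusted p under 0.05), by limma-voom (20) or with chip as a block over all 39 libraries (8), whereas DESeq2 called the same 3. Within the 6 chips that held both groups, with chip as a block, all 3 were called, at 2.20 for miR-221-3p (edgeR adjusted p = 0.0170), 2.65 for miR-200a-3p (0.0266) and 1.58 for miR-200b-3p (0.00428). That fit used 6 of the same EGME0 and 7 of the same EGME50 libraries, so it is not a separate check. Leaving out single libraries ended the call of miR-221-3p in 7 of 20 fits (EGME0 replicates 2, 9, 10, 17 and 26, EGME50 replicates 19 and 35; adjusted p up to 0.0855). It ended that of miR-200a-3p in 7 (EGME0 replicates 2, 10, 17, 18 and 26, EGME50 replicates 19 and 35; up to 0.168). It ended that of miR-200b-3p in 13 (all EGME0 replicates but 33 and 34, and EGME50 replicates 12, 19, 20, 35 and 36; up to 0.113). The fold changes in those fits ran from 1.68 to 2.02, 1.86 to 2.72 and 1.20 to 1.43.

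The next 7 miRNAs by p, among those with a mean of at least 10 counts, were also higher at EGME50 and did not pass. let-7c-5p, a member of the let-7 family that is abundant in differentiated cells, had medians of 10238 and 14826 CPM (log2 fold change 0.97, SE 0.36, edgeR adjusted p = 0.145), with 4 EGME50 libraries above every control. let-7a-5p, which differs from it at 1 base, stood at -0.11 (SE 0.29, adjusted p = 0.874), with medians of 28628.4 and 21740.2 CPM. miR-24-3p had a log2 fold change of 0.92 (SE 0.37) and miR-23a-3p one of 0.73 (SE 0.30), both at an adjusted p of 0.174, and miR-23a-3p was above the control median in 9 of 10 EGME50 libraries. Their neighbour miR-27a-3p, named after its values were seen and with a mean of 9.15 counts, stood at 1.79 (SE 0.63, adjusted p = 0.145) and was detected in 5 EGME0 and 8 EGME50 libraries. miR-365-3p was above the control median in all 10 EGME50 libraries (1.53, SE 0.58, adjusted p = 0.155), going from a median of 273 to 704 CPM. miR-205, a miRNA of basal epithelial cells, stood at 1.26 (SE 0.50, adjusted p = 0.174), with medians of 908 and 2508 CPM and no count in EGME50 replicate 36. The remaining 2 were the blood cell miRNAs miR-451-5p (1.62, SE 0.67, adjusted p = 0.181) and miR-223-3p (1.34, SE 0.57, adjusted p = 0.191). Within the 6 chips with both groups, 9 of 108 miRNAs were called: the 3 above, let-7b-5p (1.45), let-7c-5p (1.44), miR-223-3p (1.99), miR-10a-5p (1.03) and miR-23a-3p (1.02) higher, and miR-204-5p (-1.12) lower.

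Against the same controls, the 3 miRNAs called at EGME50 were called at the other doses too. miR-221-3p stood at 1.87, 2.92 and 3.18 at EGME50, EGME60 and EGME75, miR-200a-3p at 2.37, 2.63 and 3.51, and miR-200b-3p at 1.32, 1.68 and 2.14. Of the 7 that did not pass at EGME50, let-7c-5p stood at 0.97, 1.03 and 1.26, miR-205 at 1.26, 2.29 and 2.43, miR-24-3p at 0.92, 1.65 and 1.34, and miR-365-3p at 1.53, 1.42 and 1.29. Over all miRNAs 31.4% were called at EGME60 and 42.9% at EGME75.

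**Figure D2:**
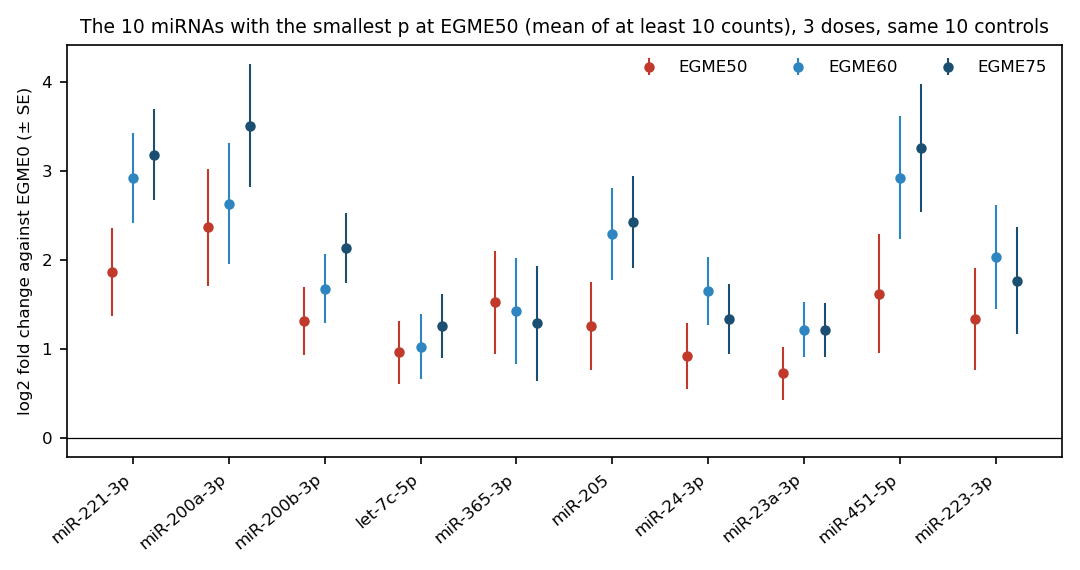
Log2 fold changes (points, with SE bars) against the same 10 EGME0 libraries for the 10 miRNAs with the smallest p at EGME50 among those with a mean of at least 10 counts, at EGME50 (red), EGME60 (light blue) and EGME75 (dark blue). At EGME50 the values lie between 0.73 (miR-23a-3p) and 2.37 (miR-200a-3p), all above 0, and since the doses share their controls the columns are not independent.

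Lists of miRNAs tied to cell types were described by their counts and medians, beside the median log2 fold change of all 105 tested (-0.00903, with 52 positive and 53 negative). The lists were chosen with earlier results of these data known, so a shared sign within a list is a description and not a test. As a check of the labelled cell type, the germ cell miRNA miR-34b-3p was the most abundant miRNA at EGME0, at 13.6% ± 4.53 of the miRNA counts (9.60% ± 2.66 at EGME50). The liver miRNA miR-122-5p was at 4 counts in EGME0 and 0 in EGME50. The germ cell list held miR-449a-5p, miR-449c-5p and the 5p and 3p forms of miR-34b and miR-34c. Of its 6 members 5 were tested, none was called, and all 5 had negative log2 fold changes with a median of -0.57. miR-34b-3p went from 102932, 167343 and 293924 CPM (lowest, median, highest) at EGME0 to 42751, 104502 and 196797 CPM at EGME50, below the control median in 9 of 10 libraries, with a log2 fold change of -0.71 (SE 0.32, edgeR adjusted p = 0.224). miR-34c-3p stood at -0.64 (SE 0.36, adjusted p = 0.312) and miR-449a-5p at -0.57 (SE 0.31, adjusted p = 0.306), each below the control median in 9 of 10 libraries. miR-34b-5p and miR-34c-5p, which share a seed with miR-449a-5p, stood at -0.46 and -0.38. Of the 4 tested miRNAs with this seed, 1 had a positive value, miR-34a-5p, which was not on the list. The list's summed share of the miRNA counts had a median of 26.3% at EGME0 (19.8% to 33.1%) and 21.5% at EGME50 (11.1% to 25.5%).

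Of the lists for other cell types, the epithelial list held 2 calls and the others none. All 4 tested epithelial miRNAs (miR-200a-3p, miR-200b-3p, miR-200c-3p and miR-429) had positive values with a median of 1.12. The summed share of the 5 listed ran from 0.625% to 1.29% of the miRNA counts at EGME0 (median 0.872%) and from 0.612% to 3.33% at EGME50 (median 1.65%). The 3 tested blood cell miRNAs (miR-451-5p, miR-223-3p and miR-150-5p) had positive values with a median of 1.34 and none was called. The blood list's summed share went from a median of 0.114% (0% to 0.343%) to 0.289% (0.119% to 1.24%). Of its 6 members in the table, miR-144-3p had no count in any of the 20 libraries, miR-142-3p had 5 counts at EGME0 and 18 at EGME50, and miR-142-5p had 43 and 19. The 2 tested muscle miRNAs, miR-143-3p and miR-145-5p, stood at 0.51 and 0.34, neither called. The other 4 of the muscle list were too sparse to test and had fewer counts at EGME50: miR-133a-3p had 173 counts over 2 EGME0 libraries and 15 over 6 EGME50 libraries, and miR-1-3p, miR-206-3p and miR-133b-3p had 28, 11 and 10 counts, each in 1 EGME0 library, and 0 at EGME50. The endothelial pair miR-126a-3p and miR-126a-5p was too sparse to test, with 85 and 51 counts at EGME0 and 85 and 49 at EGME50. miR-202-5p of Sertoli cells and the gonad stood at -0.56, and miR-124-3p of neurons at -0.19. The part of such cells in the called miRNAs was not tested.

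Other families lay closer to 0. The miR-17 family, made from clusters that promote proliferation, had 10 of 10 tested members negative with a median of -0.33 and none called, and with library totals alone 1 of the 10 was positive and the median was -0.0969. The X-linked testis cluster (miR-463 to miR-883) had 13 of 15 negative with a median of -0.25, a split that became 8 of 15 with library totals alone. Its largest value was positive, miR-871-3p at 1.19 (SE 0.58, edgeR adjusted p = 0.274). The let-7 family had 6 of 8 positive (median 0.31), 4 of 8 with RLE factors, and the miR-10, miR-99, miR-100 and miR-125 group had 4 of 6 positive (median 0.21) with a median of -0.00868 under RLE factors. The germ cell, epithelial and blood lists kept their sign in every tested member under TMM, RLE factors and library totals, while the median of all miRNAs moved from -0.00903 to -0.18 and 0.24. These settings rescale the same counts and are not separate checks.

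**Figure D3:**
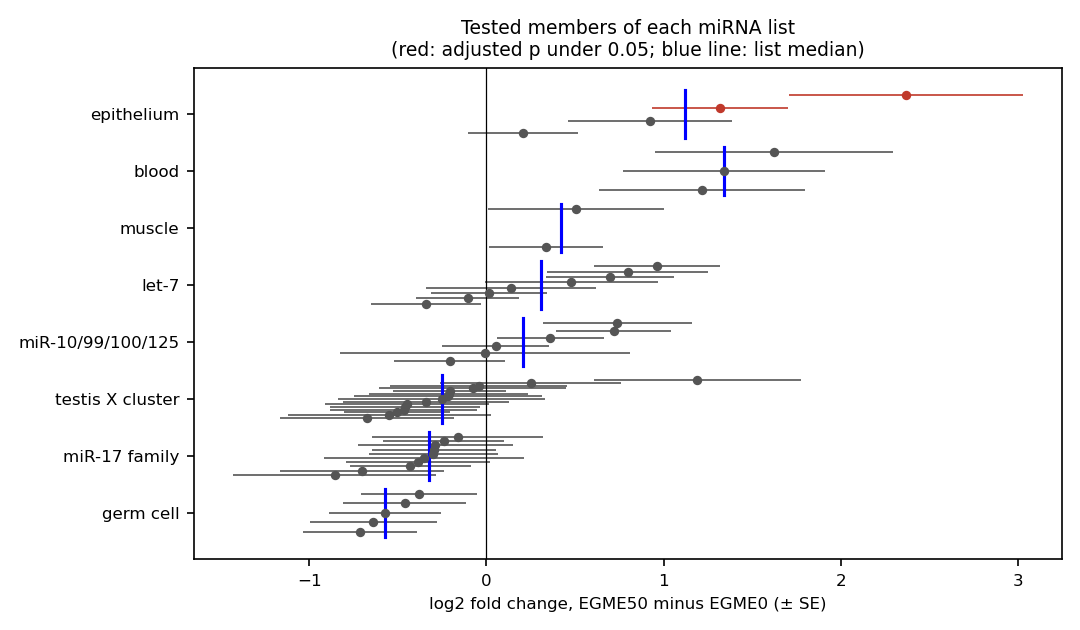
Log2 fold changes (EGME50 minus EGME0, points with SE bars) of the tested members of 8 miRNA lists, with a blue line at each list's median and red for an adjusted p under 0.05. The epithelial (median 1.12) and blood (1.34) miRNAs lie to the right and the germ cell miRNAs (-0.57) to the left of 0, and the only members past the threshold are miR-200a-3p and miR-200b-3p. The lists were chosen with earlier results of these data known.

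In the tRNA table, no tRNA gene was called at EGME50: 0 of 338 (0%), with 25 at an unadjusted p under 0.05 (21 higher, 6.21%, and 4 lower, 1.18%), and 0 with DESeq2 and limma-voom (29 and 22 unadjusted). Summed by anticodon, which joins near-identical genes, 0 of 47 were called (0%), with 2 at an unadjusted p under 0.05 (4.26%, both higher), and DESeq2 and limma-voom also called 0 with 2 unadjusted each. At EGME60 and EGME75, 34% and 57.4% of the anticodons were called against the same controls.

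The most abundant anticodons differed by less than the spread between males. SerGCT, the serine tRNA that leads the table, held 24.6% ± 5.50 of the tRNA counts at EGME0 and 22.6% ± 6.30 at EGME50 (log2 fold change -0.09, SE 0.24, edgeR adjusted p = 0.966). GlyGCC, a common source of tRNA fragments in sperm, held 23.5% ± 3.56 and 24.1% ± 3.09 (0.05, SE 0.14, adjusted p = 0.966). MetCAT held 7.04% ± 1.98 and 8.08% ± 1.86 (0.22, SE 0.20, adjusted p = 0.945), GlyTCC 5.56% ± 1.07 and 6.13% ± 1.29, and GluTTC 3.97% ± 1.21 and 4.11% ± 1.18. Beside these EGME50 values, SerGCT stood at -0.85 and -1.47 at EGME60 and EGME75, GlyGCC at 0.02 and 0.03, and MetCAT at 0.55 and 0.93.

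The smallest p-values belonged to a glutamate and a lysine anticodon, both higher at EGME50 and neither past the threshold. GluCTC ran from 1705 to 9322 CPM at EGME0 (median 3622) and from 2608 to 29698 CPM at EGME50 (median 7257). EGME50 replicates 20 and 36 lay above every control, and 3 EGME50 libraries lay under the control median. Its log2 fold change was 1.01 (SE 0.34, edgeR adjusted p = 0.214), beside 1.11 at EGME60 and 1.84 at EGME75. LysCTT had medians of 2987 and 6023 CPM and a log2 fold change of 0.73 (SE 0.29, adjusted p = 0.374), beside 1.39 and 1.96. Among the tRNA genes, the 5 smallest p-values were those of GluCTC genes (trna16347-GluCTC on chr1 among them, 0.97, SE 0.34, adjusted p = 0.249) that carried identical counts, so they are 1 measurement. Within the 6 chips with both groups, 19 tRNA genes were called, all higher: 8 GluCTC genes (0.88 each), 8 LysCTT genes (0.85 each) and 3 ThrAGT genes (0.93 each), which are 3 patterns of counts, while no anticodon sum was called. Without EGME0 replicate 25 or without EGME0 replicate 26, 8 tRNA genes were called, and 1 anticodon was called without EGME0 replicate 26 or without EGME50 replicate 27.

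In the ncRNA table, rRNA transcripts of the nuclear genome took a larger share at EGME50. This class was added to the comparisons after the data had been seen. It made up 0.0179% ± 0.0102 of the ncRNA counts at EGME0 (0.00332% to 0.0403%) and 0.0719% ± 0.0463 at EGME50 (0.0155% to 0.158%), above the control median in 9 of 10 libraries (permutation test, p = 8.1e-04, adjusted over 6 classes p = 0.00486). EGME50 was higher in 6 of 6 chips that held both groups (exact permutation within chips, p = 0.0208). As a share of all counts of the 4 tables the class went from 0.00199% ± 0.00101 to 0.00639% ± 0.00366 (permutation test, adjusted p = 0.0057). With 1 row kept per set of identical counts it went from 0.00131% to 0.00442% (adjusted p = 0.0045). The difference within the table stayed between 0.0444 and 0.0603 points when any single library was left out, and it passed the threshold each time.

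Nearly all of the table was mitochondrial rRNA, at 99.2% ± 0.627 of its counts at EGME0 and 98.98% ± 0.530 at EGME50 (permutation test, adjusted p = 0.535), so every other class was a small remainder. Small nuclear RNAs (snRNAs), the RNAs of the spliceosome, went from 0.0357% ± 0.0294 to 0.0896% ± 0.0774 (9 of 10 above the control median, adjusted p = 0.106), and were higher in 6 of 6 chips. Processed transcripts went from 0.0224% ± 0.0266 to 0.0454% ± 0.0319 (adjusted p = 0.196) and long intergenic RNAs from 0.0478% ± 0.0621 to 0.0676% ± 0.0470 (adjusted p = 0.535). Of the counts outside mitochondrial rRNA, the miscellaneous class held 83.4% ± 6.26 at EGME0 and 72.4% ± 9.46 at EGME50 (9 of 10 below the control median, adjusted p = 0.0237), the nuclear rRNA class 2.94% ± 1.43 and 7.19% ± 3.25 (adjusted p = 0.00864) and snRNAs 4.62% ± 1.46 and 8.36% ± 4.31 (adjusted p = 0.0267). This snRNA share was higher at EGME50 in 4 of 6 chips and did not pass within chips (exact permutation, p = 0.167). These shares add to 100% and are not independent.

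Single transcripts of the ncRNA table gave 1 call in 174 (0.575%), with 50 at an unadjusted p under 0.05 (41 higher, 23.6%, and 9 lower, 5.17%). Here too sparse transcripts could pass the filter, run over all 39 libraries, through the treated libraries alone. The called transcript was ENSRNOT00000087730, a long intergenic RNA. It had 0, 16.5 and 57.6 CPM (lowest, median, highest) at EGME0 and 14.7, 104 and 309.5 CPM at EGME50, on 0 to 23 and 8 to 161 counts per library. It lay above every control in 7 of 10 EGME50 libraries, and EGME50 replicate 11 was the only one under the control median. The log2 fold change was 2.27 (SE 0.51, edgeR adjusted p = 0.00822), beside 2.39 at EGME60 and 2.87 at EGME75. It was called under all 11 alternative settings (1.96 to 3.70 with the fits that left out 1 library, all of which also called it).

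Without EGME0 replicate 10 there were 13 calls and without EGME50 replicate 11 there were 16, against 1 to 5 when any other library was left out. TMM factors ran from 0.108 to 1.21 over the 20 libraries in this table, so levels and fold changes moved with the scaling. The 2 mitochondrial rRNA transcripts had a median log2 fold change of -1.10 under TMM and -0.0127 under library totals. The number of calls in this table also moved with the scaling. With RLE factors 44 were called (38 higher, 6 lower), and 73, all higher, with totals alone, with medians over all transcripts of 0.20, 0.58 and 1.47 under TMM, RLE factors and totals. Relative to those medians, the 27 miscellaneous RNAs lay at -0.96, -1.10 and -1.28 and the 26 long intergenic RNAs at 0.90, 1.05 and 0.57. The 48 nuclear rRNA transcripts lay at 0.08, 0.08 and 0.16, with 0, 11 and 27 called higher and none lower, and the 48 snRNAs at -0.23, -0.27 and -0.23, with 0, 14 and 23 called higher. Many of these rows repeat the counts of another, so the calls are not separate measurements. With 1 row per set of identical counts and TMM factors, 37 nuclear rRNA rows (9 called higher) and 24 snRNA rows (6 called higher) remained.

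**Figure D4:**
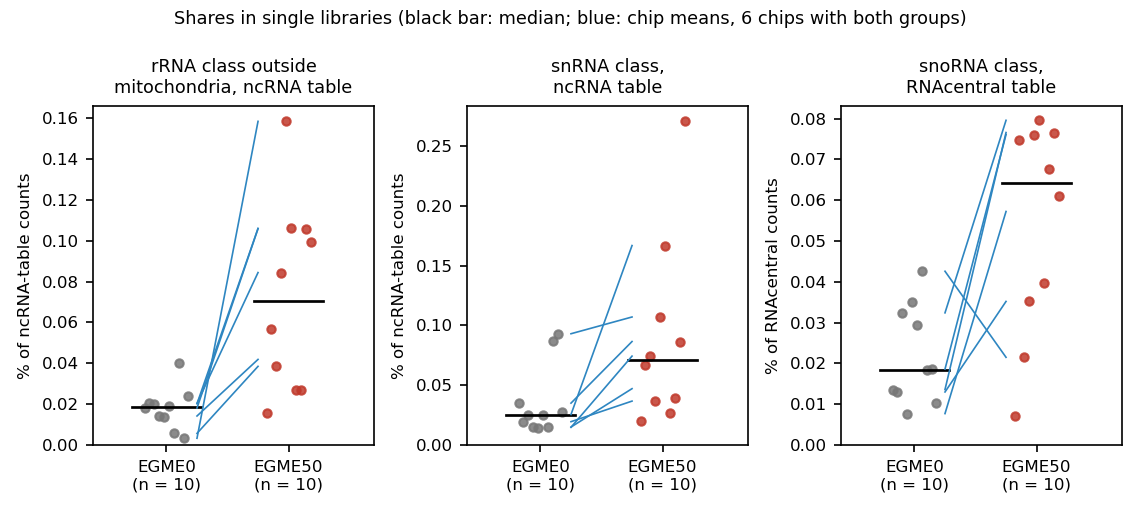
Shares in single libraries (grey EGME0, red EGME50, black bar at the median) of nuclear rRNA and snRNA in the ncRNA table and of small nucleolar RNA in the RNAcentral table, in percent of the table's counts. Blue lines join the means of both groups on each of the 6 chips that held both, and for nuclear rRNA and snRNA all 6 slope upward, while for small nucleolar RNA 5 of 6 do.

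In the RNAcentral table, 42 of 2757 entries were called (1.52%), 41 higher (1.49%) and 1 lower (0.0363%), beside 295 at an unadjusted p under 0.05 (266 higher, 9.65%, and 29 lower, 1.05%). Entries sparse in the controls could pass the filter, run over all 39 libraries, through the treated libraries alone. The balance of higher to lower is therefore a description and not a test. Of the 42 calls, 28 had a mean of at least 10 counts. The higher calls held 19 of 440 tested long noncoding RNAs and 11 of 366 entries of the class otherRNA. They also held 9 of 235 rRNAs and 2 of 1401 piRNAs, and had log2 fold changes of 2.64 to 5.85. The 42 calls held 40 distinct patterns of counts. Allowing differences of up to 10 counts or 10% in a library, a wide margin for entries of few counts, they formed 30 sets of near-identical rows, the largest of 7. No entry was absent from every control library. All 41 higher calls were also called higher at EGME60 and at EGME75, where 20.3% and 19.8% of all entries were called higher against the same controls.

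URS0000CD05C5, an otherRNA entry with no further name, had 0, 6.23 and 17.2 CPM (lowest, median, highest) at EGME0 and 9.71, 34.6 and 270 CPM at EGME50. It was above the control median in 10 of 10 EGME50 libraries and above every control in 7, and EGME50 replicates 12, 19, 20 and 36 were the highest. Its log2 fold change was 3.62 (SE 0.71, edgeR adjusted p = 0.00238), beside 5.22 at EGME60 and 5.57 at EGME75, and leaving out single libraries gave 3.11 to 4.13 with the call kept each time.
URS0000CCF812 stands for the set of 7 near-identical otherRNA entries. It had 16.4, 71.5 and 254 CPM at EGME0 and 132, 415 and 17992 CPM at EGME50. The highest value was that of EGME50 replicate 36, at 17048 counts, which carried 82.8% of the summed EGME50 CPM. The log2 fold change of 4.58 (SE 0.91, edgeR adjusted p = 0.00238) was 2.19 without that library (adjusted p = 0.107), and 7 of 10 EGME50 libraries lay above every control.

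The piRNA piR-rno-3792797 had a median of 2.71 CPM at EGME0 (0.771 to 10.7) and 17.9 CPM at EGME50 (2.45 to 114), with 5 EGME50 libraries above every control. Its log2 fold change was 3.01 (SE 0.73, edgeR adjusted p = 0.0169), and the call was lost without EGME0 replicate 2 (2.75), EGME50 replicate 12 (2.24) or EGME50 replicate 20 (2.74). The only lower call, piR-rno-3495309, rested on EGME0 replicate 33, which held 100 of its counts, or 366 CPM, against 0 to 2.38 CPM in the other controls and 0.389 to 6.33 CPM at EGME50. The log2 fold change was -4.34 (SE 1.18, edgeR adjusted p = 0.0412) and 0.75 without that library (adjusted p = 0.983). Leaving out any of 9 EGME50 libraries (all but replicate 27) also ended this call, at adjusted p up to 0.0774.

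**Figure D5:**
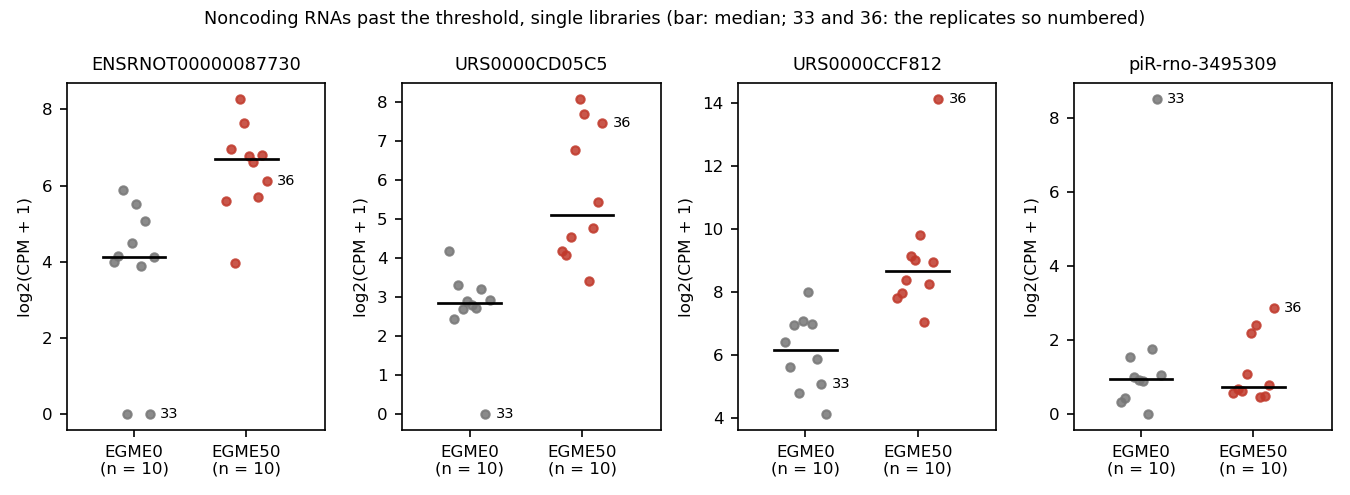
Levels, as log2 of CPM + 1, of the called ncRNA transcript and 3 called RNAcentral entries in each EGME0 (grey) and EGME50 (red) library, with a bar at the median and EGME0 replicate 33 and EGME50 replicate 36 marked where they appear. Replicate 36 stands far above its group for URS0000CCF812 (17992 CPM), and replicate 33 carries the control signal of piR-rno-3495309 (366 CPM).

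The number of RNAcentral calls rested on few libraries. The library with the highest level was EGME50 replicate 36 for 18 of the 42 calls, replicate 19 for 14, replicate 20 for 5, replicate 12 for 4 and replicate 35 for 1. Without EGME50 replicate 36 there were 14 calls, without replicate 12 or replicate 20 there were 12, and without EGME0 replicate 2 there were 14, while without EGME50 replicate 4 or 27 there were 89 and 95. Without EGME0 replicate 17, 25 or 34 there were 27, 26 and 27. With chip as a block, edgeR called 0, and limma-voom called 0 (156 and 151 at an unadjusted p under 0.05). Within the 6 chips with both groups 67 of 1834 tested entries were called, all higher, 31 of them among the 181 rRNA entries tested. Some rRNA entries carried near-identical counts, so these calls are not separate measurements.

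By class, no share of the RNAcentral table above 0.1% differed beyond the spread between males (permutation tests, smallest adjusted p = 0.941). The class tRNA held 42.8% ± 7.13 at EGME0 and 42.1% ± 7.89 at EGME50, and rRNA held 44.0% in both. The class piRNA, whose members guide PIWI proteins against transposons in the germline, held 4.45% ± 1.89 and 4.48% ± 2.56. The class otherRNA held 3.69% ± 0.705 and 4.77% ± 3.24, with EGME50 replicate 36 at 13.8%.

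Among classes below 0.1% of the table, added after the data had been seen, small nucleolar RNAs (snoRNAs), which guide the modification of rRNA, rose. They went from 0.0221% ± 0.0119 at EGME0 (0.00767% to 0.0426%) to 0.0539% ± 0.0261 at EGME50 (0.00704% to 0.0796%), above the control median in 9 of 10 libraries (permutation test, p = 0.00364, adjusted over 4 classes p = 0.0146). EGME50 was higher in 5 of 6 chips that held both groups (exact permutation within chips, p = 0.0417). As a log2 ratio to the rest of the table the difference was 1.21 and missed the threshold (adjusted p = 0.0584). All 32 tested snoRNA entries had positive log2 fold changes, with a median of 1.23 beside 0.06 for all entries, and 14 had an unadjusted p under 0.05, but none was called. All 32 were also positive under RLE factors (median 0.91) and library totals (1.36), and 31 were with chip as a block (1.75). With 1 row per set of identical counts 26 entries remained, so the 32 are not separate measurements. Sparse entries could pass the filter, run over all 39 libraries, through the treated libraries alone. The number of positive entries is therefore a description and not a test. snRNA entries had a median of 1.09 with 21 of 25 positive, and the snRNA share went from 0.0185% ± 0.00619 to 0.0311% ± 0.0288 (adjusted p = 0.130), with EGME50 replicate 36 at 0.110%.

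The rRNA entries divided by abundance. The 20 most abundant of the 235 tested held 80.1% of the rRNA counts and had a median log2 fold change of -0.08, with 7 positive. The other 215 had a median of 1.01, with 161 positive. Less abundant entries could pass the filter through the treated libraries alone, and some carried near-identical counts, so this split is a description and not a test. With chip as a block, the 235 rRNA entries had a median of 0.56, beside 0.32 for all entries. The 9 rRNA calls were all among entries of modest counts, such as URS00008C644C (3.09, mean of 100.5 counts) and URS0000713A83 (2.64, above every control in 9 of 10 EGME50 libraries). These 2 were chosen after their values were seen. Over the 1401 tested piRNAs the median was -0.00249, with 693 positive and 3 called.

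Among the features tested in the 4 tables and the anticodon sums, 1 had EGME50 and EGME0 values that did not overlap, and it was not called. The RNAcentral entry URS000018C059, a threonine tRNA chosen after its values were seen, ran from 190 to 492 CPM at EGME0 (median 295) and from 504 to 953 CPM at EGME50 (median 597). Its log2 fold change was 0.96 (SE 0.37, edgeR adjusted p = 0.237), beside 0.58 at EGME60 and -0.06 at EGME75. Non-overlapping features made up 0.0363% of the 2757 RNAcentral entries tested and 0% of the miRNAs, tRNA genes, anticodons and ncRNA transcripts.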

How the data were processed

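Small RNA of 39 sperm libraries was measured by ion semiconductor sequencing (per the labels, mirVana RNA with DNase, 10 ng per library, Ion total RNA-seq kit). The authors deposited 4 tables of raw counts of sense-strand reads, and every value used was such a deposited count. The submitters' processing notes name FastQC, Bowtie and DESeq2. How reads that fit several features were counted is not given in the sources used here. Rows repeating another row's counts (28, 158, 593 and 26128 with counts in the miRNA, tRNA, ncRNA and RNAcentral tables) were kept as deposited, and the tables may overlap, so shares are shares of assignments. Every column matched a sample (0 unmatched), no 2 libraries were identical, and the ncRNA transcripts carried no gene names.

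The tests used edgeR 4.0.16 (R 4.3.3) with TMM factors, filterByExpr by group, robust quasi-likelihood fits over all 39 libraries, two-sided, contrast EGME50 minus EGME0, Benjamini-Hochberg within each table, threshold 0.05. The tests were tried first on simulated counts with known changes. Changes of 2-fold were recovered in 9.09% of cases for miRNAs, 85.3% for tRNA genes, 11.1% for ncRNA transcripts and 5% for RNAcentral entries. Changes of 4-fold were recovered in 100%, 100%, 52.9% and 37%. The 2-fold and 4-fold rates rested on 11 and 10 changed miRNAs and on 18 and 17 changed ncRNA transcripts. Each row was drawn independently, while many real rows repeat another's counts, so the rates need not hold for the real tables. False calls were 2 of 84 unchanged miRNAs, 5 of 270 tRNA genes and 0 elsewhere. Most simulated 2-fold changes outside the tRNA table thus went uncalled. tRNA genes were summed to anticodons. Shares were compared by two-sided permutation tests (100000 permutations). Alternatives were RLE factors, library totals, no filter, a mean of at least 10 counts, DESeq2 1.42.0, limma-voom (limma 3.58.1), the 20 libraries alone, chip as a block, the 6 shared chips alone, distinct rows and leaving out each library. Named were calls, the 10 miRNAs with the smallest p at a mean of at least 10 counts, the 10 largest miRNA shares, list members, the 5 anticodons with the smallest p and the 10 largest, the 5 tRNA genes with the smallest p, and at most 2 unnamed transcripts per direction. Members and lists were chosen with earlier results of these data known. The files' build was Rnor_6.0 and the reference GRCr8, so no coordinates are given.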

Additional observations from a re-analysis of the deposited data

Results flagged for a closer look

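Among 134 groups of 10 values, 20 held a library whose gap to its neighbour exceeded the 95% critical value of Dixon's ratio. Chance gives about 1 in 20 groups where values are normal and groups are independent, which linked shares of the same libraries are not. The count of 20 is therefore a description and not a test. Causes were not tested.

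EGME0 replicate 33, the shallowest control, had a log10 total of 5.85 against a group median of 6.98. In the ncRNA table it had 0.214% long intergenic RNA (median 0.0235%) and 0.0947% processed transcripts (median 0.0139%). On the log2 CPM scale it was low for miR-221-3p (7.39, median 9.45), miR-741-3p (13.5, median 15.1) and URS0000CD05C5 (-0.53, median 2.79) and high for piR-rno-3495309 (8.52, median 0.71).

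EGME50 replicate 36 had 13.8% of its RNAcentral counts in otherRNA (median 3.85%), 0.127% in ncRNA (median 0.0131%) and 0.110% in snRNA (median 0.0196%). On the log2 CPM scale it was low for miR-19b-3p (12.9, median 15.9) and miR-205 (7.39, median 11.3) and high for URS0000CCF812 (14.1, median 8.67).

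The other libraries were each far from their group in 1 to 3 measures. EGME0 replicate 25 had 23.9% of its counts in the ncRNA table (median 10.7%). EGME0 replicate 26 had 0.0240% ncRNA (median 0.0115%) and 0.576% srpRNA (median 0.265%) in the RNAcentral table and 2.05% miscellaneous RNA (median 0.431%) in the ncRNA table. EGME50 replicate 4 had 10.6% piRNA (median 3.99%). EGME50 replicate 11 stood at 15.1 on the log2 CPM scale for AsnGTT (median 14.4), and EGME50 replicate 28 at 18.6 for GlyGCC (median 17.9).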

How the results depend on the processing

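No paired analysis was possible because each replicate number belonged to 1 male of 1 group; chip stood in as the block. The counts of calls moved by over 1.5 times as follows. miRNAs (3): 0 with RLE factors, limma-voom or chip as a fixed block, 11 with library totals (11 higher) or no filter (5 higher, 6 lower), 1 in the 20 libraries alone, 9 in the shared chips, 0 to 3 leaving out 1 library. tRNA genes (0): 19 in the shared chips and 0 to 8 leaving out 1 library. Anticodons (0): 0 to 1. ncRNA transcripts (1): 44 with RLE factors, 73 with library totals, 38 without a filter, 50 at a mean of at least 10 counts, 21 with DESeq2, 21 in the 20 libraries alone, 5 in the shared chips, 41 without rows over 10% of the counts, 26 with distinct rows, 1 to 16 leaving out 1 library. RNAcentral entries (42): 345 without a filter, 91 with DESeq2, 0 with limma-voom or chip, 67 in the shared chips, 12 to 95 leaving out 1 library.

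No comparison of table shares, depth or RNAcentral classes above 0.1% passed the threshold under any of its alternatives. Smaller classes passed within the shared chips (exact permutation, unadjusted): differences of 0.0104 points for miscRNA, 0.00850 for ncRNA, 0.00721 for snRNA, and, among all ncRNA counts, 0.0260 for processed transcripts and 0.0526 for snRNA. snoRNA missed the threshold as a log2 ratio (1.21). Of counts outside mitochondrial rRNA, processed transcripts (1.52 points) and snRNA (3.74) passed, and the miscellaneous class passed at -10.9 points against 0.0867 among all ncRNA counts. Leaving out 1 library gave 0.00621 to 0.00910 for miscRNA, 0.0168 to 0.0311 for processed transcripts and 0.0338 to 0.0616 for snRNA among all ncRNA counts. They went past the threshold without EGME0 replicate 1 or EGME50 replicate 3, 11 or 28, without EGME0 replicate 33, and without EGME50 replicate 3, in that order.

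Direction, however, turned in differences near 0, none past the threshold then except the miscellaneous class outside mitochondrial rRNA given above. Leaving out 1 library gave -0.0285 to 0.00635 points for the miRNA share, -0.841 to 2.78 for tRNA, -0.0149 to 2.70 for RNAcentral and -0.0331 to 0.128 for log10 depth. For RNAcentral classes it gave -0.555 to 0.0963 for lncRNA, -0.639 to 0.420 for piRNA, -1.14 to 1.37 for rRNA and -2.25 to 1.04 for tRNA, and for the miscellaneous class -0.0214 to 0.242. Within shared chips lncRNA stood at 0.00279, piRNA at -0.230 (log2 ratio -0.0857) and tRNA at 1.76. The miscellaneous class stood at -0.00307 of all counts and -0.00257 with distinct rows.

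Of 2599 refits of 88 named features, 2431 kept direction and side, 57 fell under and 24 went past the threshold, and 87 changed sign, over 23 features. Of these 23, piR-rno-3495309 alone was called; it stood at 0.80 with DESeq2 and -4.71 to 0.75 leaving out 1 library (0.75 without EGME0 replicate 33). RLE factors turned let-7f-5p (-0.16), let-7i-5p (-0.026) and miR-10b-5p (-0.16). Library totals turned let-7a-5p (0.26), miR-743a-3p (0.0078), miR-743b-3p (0.049), miR-871-5p (0.22), miR-880-3p (0.17), miR-883-3p (0.047), miR-92a-3p (0.13), miR-99a-5p (0.082) and miR-99b-5p (0.13). limma-voom turned let-7i-5p (-0.065), miR-871-5p (0.11) and miR-99b-5p (0.042), no filter miR-99b-5p (0.028), and a mean of at least 10 counts GlyGCC (-0.0034). The 20 libraries alone turned let-7a-5p (0.041), miR-871-5p (0.052) and miR-880-3p (0.011). Chip as a block turned let-7a-5p (0.10), miR-871-5p (0.089), miR-880-3p (0.059), miR-92a-3p (0.14), miR-19b-3p (0.041), LeuAAG (-0.037), SeC(e)TCA (0.014), SerAGA (0.098) and SerGCT (0.13). The shared chips turned let-7a-5p (0.17), miR-743b-3p (0.072), miR-92a-3p (0.17), miR-99a-5p (0.24), miR-19b-3p (0.067), GlyGCC (-0.16), LeuAAG (-0.050) and SeC(e)TCA (0.0050). Leaving out 1 library gave -0.12 to 0.14 for let-7f-5p, -0.016 to 0.27 for let-7i-5p, -0.088 to 0.11 for miR-10b-5p, -0.30 to 0.12 for miR-871-5p, -0.52 to 0.077 for miR-880-3p, -1.51 to 0.10 for miR-202-5p and -0.85 to 0.065 for miR-124-3p. It gave -0.093 to 0.086 for GlyGCC, -0.018 to 0.14 for LeuAAG, -0.19 to 0.018 for SeC(e)TCA, -0.15 to 0.013 for SerAGA, -0.26 to 0.0015 for SerGCT, -0.033 to 0.13 for GluTTC and -0.16 to 0.0029 for ValCAC. miR-99b-5p stood at 0.036 to 0.055 in the 3 such refits that tested it. The causes were not tested. The shallowest library held 1098 miRNA counts, which limits what can be seen of sparse miRNAs.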
